A study of Mus musculus with 24 samples.

Results

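Fibroblasts of mouse embryos (MEF), cells of connective tissue taken into culture, were held at rest by serum starvation and then followed back into division. The samples described here are the 6 arrays taken at 18, 20, 22 and 24 h after serum refeeding, read together as a window of cycling cells, and the 2 arrays of starved cells at 0 h, 8 of the 24 arrays of the series. The arrays were chosen by their labelled times. The window holds 2 arrays each at 18 h and 24 h and 1 array each at 20 h and 22 h. All cells were early passage MEF plated in medium with 10% foetal calf serum (FCS), starved for 48 h and, for the window, given 10% FCS again. The low serum content is given as 0.5% FCS in the sample protocol and as 0.1% in the design text. The 2 arrays of unsynchronised MEF, which were neither starved nor refed, are given beside some genes as a description. The labels call duplicates biological, but whether they came from separate cultures is not given, so p-values cover only the spread seen among these arrays, part or all of which may be technical. The comparison asks which transcripts stood at a lasting different level once the cells were cycling, and genes outside the cell cycle come first.

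Fibroblasts without serum leave the cell cycle and enter quiescence, a resting state in which they keep and renew the extracellular matrix around them. Serum, the fluid left when blood clots, carries platelet growth factors and lysophosphatidic acid, and fibroblasts meet it in the body mainly at wounds. Their answer begins within minutes with immediate early genes such as Fos, passes through secreted proteases, chemokines and growth machinery, and leads to DNA replication and mitosis.

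Promoter sequence was set beside the results for a pair of motifs that belong to the largest groups of change. AP-1, the dimer of Fos and Jun proteins that serum induces, binds TGANTCA, and the interferon-stimulated response element (ISRE), the site through which interferons turn genes on, holds the repeat searched here as GAAANNGAA. Both strands of the 250 bases before each gene's start were searched in RefSeq's promoter table (GRCm38.p6), and overlapping matches were kept. AP-1 letters occurred in 7.82% of the 27025 genes in that table and ISRE letters in 8.18%. Among the 7941 genes tested here that are in the table, the shares were 5.29% and 7.34%. Of the 15 largest rises outside the cell cycle, 13 were in the table and 6 of these held the AP-1 letters. Among the matrix proteases and their inhibitors, 4 of 5 genes in the table that rose held them and 0 of 9 that fell. Of the cytokines and chemokines that rose, 4 of the 9 in the table held them (44.4%). These groups share genes: Mmp3 and Mmp10 count both among the largest rises and among the proteases. Il6 counts both among the largest rises and among the cytokines. Of the interferon-stimulated genes that fell, 20 were in the table and 11 of them held the ISRE letters (55.0%), while 4 held the AP-1 letters (20.0%), against 5.29% of the genes tested. ISRE letters were in 1 of the 5 proteases and inhibitors that rose (20.0%) and in 1 of the 9 cytokines and chemokines (11.1%). The interferon list is one of genes that answer interferon, so its ISRE share describes the list, and a link to the fall was not tested. These matches describe letters in a window and are no evidence of binding. The promoters of 3 proteases and a cytokine that rose and of 2 interferon-stimulated genes that fell are printed because their letters stand for these groups. They were chosen after the values were seen. Each runs 5′ to 3′ on the gene's strand and ends at the base before the start, with the matched letters in capitals.
Mmp3, + strand, chr9:7445672-7445821: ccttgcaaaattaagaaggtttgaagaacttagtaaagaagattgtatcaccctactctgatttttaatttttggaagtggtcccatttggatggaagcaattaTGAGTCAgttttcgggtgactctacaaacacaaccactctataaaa
Mmp10, + strand, chr9:7502192-7502341: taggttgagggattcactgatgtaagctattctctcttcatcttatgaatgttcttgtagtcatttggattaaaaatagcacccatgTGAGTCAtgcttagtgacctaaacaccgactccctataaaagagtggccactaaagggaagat
Mmp13, + strand, chr9:7272364-7272513: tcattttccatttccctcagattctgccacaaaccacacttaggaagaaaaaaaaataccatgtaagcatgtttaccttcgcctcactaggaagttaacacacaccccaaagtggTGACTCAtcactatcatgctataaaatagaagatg
Il6, + strand, chr5:30012864-30013113: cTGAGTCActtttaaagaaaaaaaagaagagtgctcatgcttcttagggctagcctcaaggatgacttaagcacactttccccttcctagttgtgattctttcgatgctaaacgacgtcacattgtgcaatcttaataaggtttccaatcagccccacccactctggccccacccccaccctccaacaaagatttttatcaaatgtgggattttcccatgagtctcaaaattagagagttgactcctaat
Ifit1, + strand, chr19:34640739-34640888: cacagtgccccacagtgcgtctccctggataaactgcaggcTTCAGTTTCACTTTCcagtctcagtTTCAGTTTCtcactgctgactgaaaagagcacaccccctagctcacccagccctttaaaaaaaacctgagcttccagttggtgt
Isg15, - strand, chr4:156200819-156200968: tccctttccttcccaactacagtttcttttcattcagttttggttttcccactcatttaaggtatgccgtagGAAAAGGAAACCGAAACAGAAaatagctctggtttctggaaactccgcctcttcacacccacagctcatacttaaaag
The 3 Mmp genes lie on chromosome 9 and carry a single match each, 39 bases before the start in Mmp3, 56 in Mmp10 and 28 in Mmp13. The match in Il6 lies 242 bases before the start. Ifit1 and Isg15 hold 3 matches each, some of them overlapping, between 57 and 100 bases before the start.

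Of 9970 genes tested, 2111 (21.2%) were higher in the window than at 0 h and 1815 (18.2%) were lower (limma on 6 against 2 arrays, Benjamini-Hochberg adjusted p under 0.05). A gene was tested if it reached an intensity of 20, the low limit in the study's methods, in at least 2 of the 24 arrays. In 24.0% of all genes tested the 6 window arrays all lay above both 0 h arrays, and in 21.4% all lay below them. Cell cycle genes are here the mouse orthologues of the study's list of S and G2-M genes, G1 cyclins, kinases and inhibitors, enzymes of deoxynucleotide synthesis and histones. Outside these, 1683 of 9398 genes (17.9%) were higher and 1807 (19.2%) lower. At a change of at least 2-fold, 234 of the 486 genes that rose were outside the cell cycle, or 48.1%, and 404 of the 406 that fell, or 99.5%. The median log2 change over all genes was 0.016. The 0 h arrays were less alike than the others, with Pearson's r of 0.970 across genes and an SD of 0.29 on the log2 scale, against 0.992 and 0.16 at 18 h and 0.986 and 0.20 at 24 h. The number of arrays limits the precision. The fit gave each gene a single spread for both groups, drawn mostly from the window arrays. Standard errors and p-values may therefore be too small where the 0 h arrays lie far apart. Where all arrays of a group lay below 20, the size of a change rests on dim values. Among genes described below this held at 0 h for U90926, Mmp10, Akr1c18, Il6, Il18rap, Serpinb2, Itga2, Grb14 and Birc5, and in the window for Abcc9, Adh1, Angptl1, Bmp6, Cldn1, F830016B08Rik, Gucy1a1, Il33, Lrrtm1, Pamr1, Ptprc, Reg1, Slc40a1, Tbxa2r and Tet1.

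Fibroblast markers were the brightest of the marker lists. All 12 reached 20, with summed intensities of 19173 to 20809 at 0 h and of 18140 to 19290 in the window. Of these 12, 4 were higher (33.3%) and 5 lower (41.7%), or 2 lower without the second 0 h array. Markers of macrophages and leukocytes, cells that embryo cultures can hold, summed to 2093 to 2794 at 0 h and to 1432 to 1740.1 in the window. Of the 14 that were tested 9 fell, among them C1qb, Cd68 and the pan-leukocyte gene Ptprc, and 1, Itgam, rose. Without the first 0 h array 5 fell. Fewer cells of a type and less RNA in each cell cannot be told apart in such samples. Of 12 endothelial markers 10 lay below 20 in all 8 arrays, and so did all 10 epithelial markers, 9 of 13 of muscle, 9 of 12 of neural cells and 9 of 13 of fat and cartilage.

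The 15 largest rises outside the cell cycle held the matrix proteases Mmp10, Mmp9 and Mmp3. Of 25 genes of matrix proteases and the inhibitors that limit them, 9 were higher in the window (36.0%) and 11 lower (44.0%), and Mmp10, Mmp9, Mmp3, Mmp13, Timp1, Plaur, Plau and Plat were among the 9. Mmp3, stromelysin 1, which cleaves proteoglycans and activates other proteases, had intensities of 64.5 and 91.7 in the 0 h arrays and of 676 to 795 (median 746) in the window (log2 change 3.26, standard error 0.14, adjusted p = 1.2e-07 from limma). The 6 window arrays lay close together and far above both 0 h arrays. Mmp10, the related stromelysin 2, went from 16.0 and 10.4 to 118 to 239 (median 183) (log2 change 3.74, standard error 0.27, adjusted p = 2.1e-06 from limma). Mmp9, a gelatinase, went from 24.2 and 17.4 to 194 to 331 (median 234) (log2 change 3.56, standard error 0.21, adjusted p = 6.4e-07 from limma). Both were at or near the limit of 20 at 0 h, so the size of their fold changes rests on dim values. Mmp13, a collagenase, had 48.8 and 64.4 at 0 h and 183 to 351 (median 295) in the window (log2 change 2.26, standard error 0.24, adjusted p = 3.2e-05 from limma). Levels of Mmp3 in the window exceeded those in unsynchronised cells (269 and 277), and so did levels of Mmp13, with 115 and 90.6 there. Before the window Mmp10 and Mmp13 had stood higher, at 772 and 770.3 at 8 h, and Mmp9 at 553 at 6 h. Mmp10 was at 239 and 216 at 18 h and at 118 and 156 at 24 h. At these times Mmp9 was at 331 and 296 and at 194 and 199.5, and Mmp13 at 351 and 338 and at 199.9 and 299. These 24 h against 18 h differences missed the threshold (limma, adjusted p = 0.51, 0.39 and 0.58).

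An inhibitor rose beside the proteases. Timp1, which inhibits matrix metalloproteases, was at 455 and 462 at 0 h and at 1607 to 2077 (median 1839) in the window (log2 change 1.98, standard error 0.12, adjusted p = 7.1e-07 from limma). Its spread was narrow next to the change. Plaur, the receptor that holds urokinase at the cell surface, and Plau, urokinase itself, had log2 changes of 1.80 and 0.67 (limma, adjusted p = 8.8e-05 and 6.1e-04). Unsynchronised cells had 698 and 544 for Plaur, above the window's range of 242 to 382. Other members of the same families moved the other way or did not pass. Adamts5 and Adamts1, which cleave aggrecan and versican, had log2 changes of -1.69 and -1.30 (limma, adjusted p = 1.2e-06 and 1.2e-04). The gelatinase Mmp2 had one of -0.48 (limma, adjusted p = 0.0046), with intensities of 1046 to 1222 in the window. Mmp14, the membrane protease that activates Mmp2, had a log2 change of 0.09 and overlapping groups, and Timp2 one of -0.13. The 0 h arrays of Mmp14 were 1081 and 1868, on either side of the window's range, and without the second it was called as higher, with a log2 change of 0.48 (limma, adjusted p = 0.010). The metalloproteases that rose thus lay below 100 at 0 h, while Mmp2 and Mmp14 stood at 1046 or more in all 8 arrays.

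**Figure D1:**
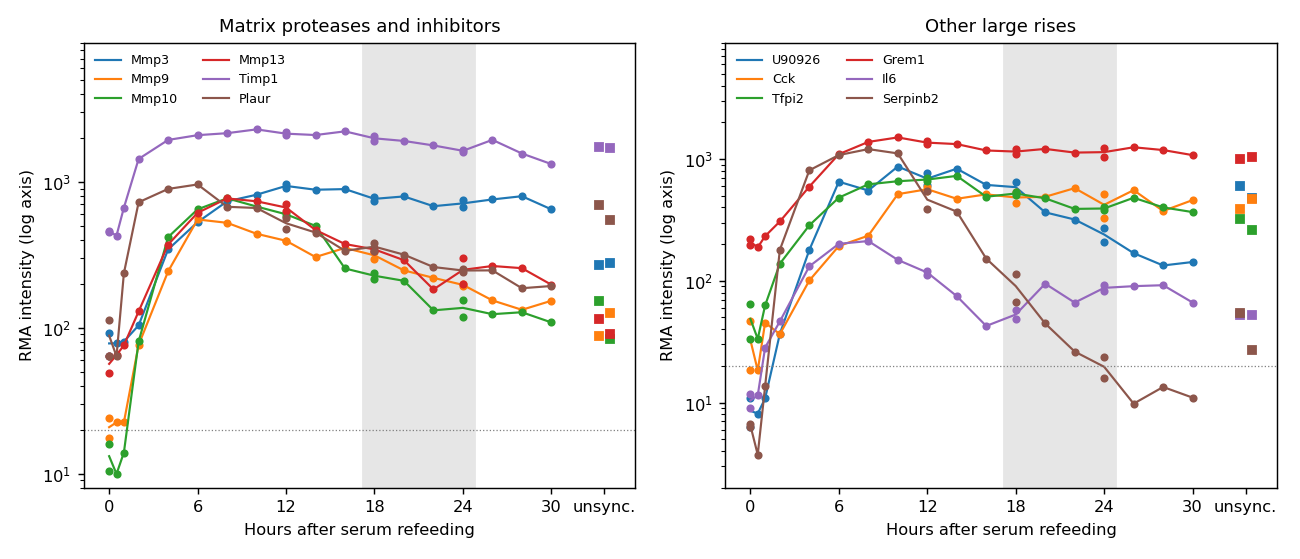
RMA intensity (log axis) against hours after serum refeeding for 6 genes of matrix proteases, an inhibitor and a protease receptor (left) and 6 other large rises (right). Points are single arrays, lines join the means of a time point, squares are the 2 unsynchronised arrays, the grey band is the window and the dotted line the limit of 20. In the window Mmp3 stays between 676 and 795 while Serpinb2 spans 15.8 to 114.

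Of the other large rises, U90926, a transcript without a gene name, had the largest fitted change of the genes outside the cell cycle, against 0 h values below the limit of 20. It was at 10.8 and 6.29 at 0 h and at 207 to 651 (median 341) in the window (log2 change 5.45, standard error 0.37, adjusted p = 1.4e-06 from limma), and at 605 and 482 in unsynchronised cells. Within the window it was 523 and 651 at 18 h and 273 and 207 at 24 h. Cck, cholecystokinin, a gut and brain peptide hormone, was at 46.9 and 18.5 and at 329 to 576 (median 500.2) (log2 change 4.00, standard error 0.29, adjusted p = 2.4e-06 from limma). Its 0 h arrays were far apart, and the log2 change was 4.67 without the first and 3.33 without the second. Tfpi2, an inhibitor of serine proteases, was at 64.1 and 33.3 and at 384 to 534 (median 438) (log2 change 3.27, standard error 0.22, adjusted p = 1.4e-06 from limma). Grem1, gremlin, a secreted antagonist of bone morphogenetic proteins, was at 222 and 195 and at 1038 to 1237 (median 1163) (log2 change 2.47, standard error 0.11, adjusted p = 1.5e-07 from limma). Its window arrays differed little from each other, and unsynchronised cells were at 1006 and 1040.0. Pcolce2, which enhances the processing of procollagen, rose by 2.40 on the log2 scale, and Olr1, a receptor for oxidised lipoproteins, by 2.47. Olr1 had 111 and 101 in unsynchronised cells, far below its window range of 358 to 481, while Pcolce2, at 228 and 228, lay above its range of 126 to 153. No difference from unsynchronised cells was tested for these or any other genes.

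The remaining large rises were dim at 0 h. Mcpt8, a gene named for a mast cell protease, had a log2 change of 3.10, with 3.80 when the first 0 h array was left out and 2.39 when the second was. Akr1c18, which breaks down progesterone, had one of 2.98, with 14.0 and 8.09 at 0 h and 52.8 to 113 in the window. Il18rap, a subunit of the interleukin 18 receptor, had one of 2.29, with no window array above 32.8. These genes lay at or below about 20 at 0 h. Serpinb2, plasminogen activator inhibitor 2, was the least stable of the 15. It was at 6.32 and 6.70 at 0 h, 1205 at 8 h and at 67.1 and 114 at 18 h, 44.6 at 20 h, 26.2 at 22 h and 23.5 and 15.8 at 24 h. Its change over the window (log2 change 2.57, standard error 0.58, adjusted p = 0.0047 from limma) thus averages unlike levels, and the 24 h against 18 h difference of -2.18 missed the threshold (limma, adjusted p = 0.10).

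Cytokines and chemokines, the signals by which fibroblasts call in leukocytes, were mostly higher. Of 25 tested, 16 were higher (64.0%) and 2 lower, with a median log2 change of 0.63. Il6, the acute-phase cytokine, was at 11.8 and 9.08 at 0 h and at 48.1 to 94.6 (median 74.6) in the window (log2 change 2.79, standard error 0.24, adjusted p = 7.1e-06 from limma). Both 0 h values lay below the limit of 20, so the size of the change rests on dim values. Il6 was at 212 at 8 h. Cxcl14 was at 128 and 152 and at 556 to 789.9 (median 669) (log2 change 2.24, standard error 0.14, adjusted p = 1.1e-06 from limma), and the neutrophil attractant Cxcl5 at 352 and 316 and at 741 to 1038 (median 927) (log2 change 1.43, standard error 0.15, adjusted p = 2.4e-05 from limma). Neither gene's groups overlapped, and unsynchronised cells had lower levels of both, 304 and 379 for Cxcl14 and 505 and 516 for Cxcl5. Ccl2, which attracts monocytes, had a log2 change of 1.16 and Cxcl1 of 1.33 (limma, adjusted p = 4.2e-04 and 2.6e-04). The 2 that fell were Il33, an alarmin kept in the nucleus, and Cxcl10, an interferon-induced chemokine. Il33 was at 63.5 and 40.3 and at 8.54 to 12.1 (median 11) (log2 change -2.25, standard error 0.18, adjusted p = 4.0e-06 from limma), with the whole window below the limit of 20, and Cxcl10 had a log2 change of -0.70. Without the first 0 h array 1 of the list fell, and Cxcl10 was not called without either 0 h array.

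Genes of prostaglandin synthesis and response moved both ways. Of 16 tested, 8 were higher (50.0%) and 4 lower. The list also holds genes of lysophosphatidic acid, and Lpar4 and Enpp2, among the 4 that fell, belong to these and not to prostaglandins. Ptgs2, the inducible cyclooxygenase that starts prostaglandin synthesis, was at 682 and 388 at 0 h and at 1116 to 1558 (median 1313) in the window (log2 change 1.34, standard error 0.19, adjusted p = 2.2e-04 from limma), and Ptges, which makes prostaglandin E2, had a log2 change of 0.79. Hpgd, which inactivates prostaglandins, had one of -0.72. The receptors with the largest falls were Tbxa2r, for thromboxane, at 75.3 and 83.1 and at 9.74 to 18.2 (median 13.7) (log2 change -2.49, standard error 0.21, adjusted p = 5.3e-06 from limma), and Lpar4, for lysophosphatidic acid, at 434 and 392 and at 92.8 to 133 (median 107) (log2 change -1.93, standard error 0.14, adjusted p = 1.9e-06 from limma). Enpp2, autotaxin, which makes lysophosphatidic acid, had a log2 change of -0.89 (limma, adjusted p = 2.5e-04).

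The falls were led by genes of varied roles, many of which were near the limit of 20 in the window. Arhgap20, a GTPase-activating protein, had the largest fall, from 597 and 457 at 0 h to 37.9 to 46.6 (median 40.3) (log2 change -3.66, standard error 0.13, adjusted p = 6.8e-08 from limma). It was already at 23.7 at 4 h. Nrk, a kinase gene, went from 276 and 186 to 16.8 to 27.2 (median 18.8) (log2 change -3.52, standard error 0.20, adjusted p = 4.9e-07 from limma). Cygb, cytoglobin, a globin of fibroblasts, went from 191 and 158 to 19.4 to 25.7 (median 23.3) (log2 change -2.93, standard error 0.14, adjusted p = 1.9e-07 from limma). In none of these did the groups overlap. Cldn1, a tight junction protein, Adh1, an alcohol dehydrogenase that oxidises retinol, and Lrrtm1 all lay at 93.9 or more at 0 h and below 20 in each of the 6 window arrays, with log2 changes of -3.11, -2.91 and -2.95. Ldb2, which links LIM transcription factors, changed by -3.08, Rtl3 by -3.38, Pamr1 by -3.08, Pgm5 by -2.79 and Angptl1 by -2.84. Reg1 changed by -2.97, but its 0 h arrays were at 143 and 44.5, and the change was -2.13 without the first and -3.82 without the second. The 15 largest falls also held Lgr5, Ifit1 and F830016B08Rik, which changed by -2.74.

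**Figure D2:**
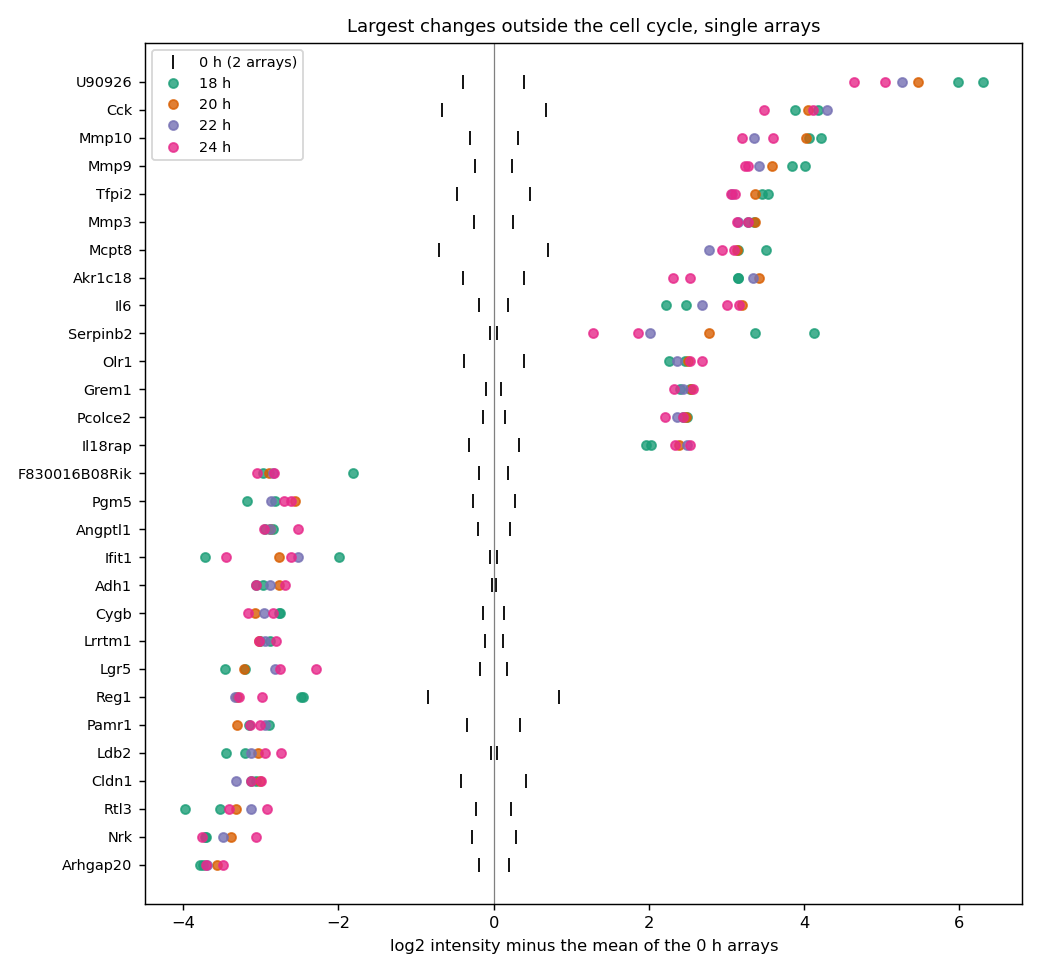
log2 intensity of 14 of the 15 largest rises and of the 15 largest falls outside the cell cycle, as the difference of each array from the mean of the 0 h arrays. Coloured points are the 6 window arrays by time and vertical ticks the 0 h arrays. Serpinb2 spreads most among the rises, and Ifit1 has its 18 h arrays at either end.

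Genes of the extracellular matrix were widely lower. Of 57 tested, 32 were lower (56.1%) and 3 higher, with a median log2 change of -0.41. Small leucine-rich proteoglycans and elastin were among the largest falls. Ogn, osteoglycin, was at 1704 and 1676 at 0 h and at 252 to 319 (median 293) in the window (log2 change -2.55, standard error 0.11, adjusted p = 1.2e-07 from limma). Aspn, asporin, was at 2486 and 2108 and at 398 to 493 (median 439) (log2 change -2.38, standard error 0.11, adjusted p = 2.2e-07 from limma), and Podn, podocan, had a log2 change of -2.18. Each stayed low over the whole window. Col14a1, a collagen that lies on fibril surfaces, was at 67.3 and 93.0 and at 12.4 to 23.3 (median 19) (log2 change -2.15, standard error 0.22, adjusted p = 2.1e-05 from limma). Eln, elastin, was at 89.8 and 279.9 and at 16.0 to 35.9 (median 27.9) (log2 change -2.55, standard error 0.38, adjusted p = 3.0e-04 from limma), and its change was -3.37 without the first 0 h array and -1.73 without the second. The fibrillar collagen Col1a1 had a log2 change of -0.26 (limma, adjusted p = 0.098), with intensities of 2337 to 2944 in the window. Col3a1, another fibrillar collagen, was at 1632 and 2082 at 0 h and at 863 to 1038 in the window. Col1a2 was at 2011 and 2436 and at 1572.5 to 1931, and the groups of neither gene overlapped. Fn1, fibronectin, fell by 0.31 on that scale (limma, adjusted p = 0.031), a call lost on leaving out either 0 h array, the 22 h array or the second 24 h array, with adjusted p of 0.050 to 0.11. The 3 that rose were Tnc, tenascin C, a matrix protein of healing wounds, Ltbp1, which holds latent TGF-beta in the matrix, and its relative Ltbp2. Tnc was at 1143 and 1168 and at 2718 to 2971 (median 2871) (log2 change 1.30, standard error 0.10, adjusted p = 2.6e-06 from limma). Ltbp1 and Ltbp2 had log2 changes of 1.24 and 0.77.

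Interferon-stimulated genes were the list with the largest share of falls. Of 33 tested, 28 were lower (84.8%) and 1, Ifit2, was higher, with a median log2 change of -1.0. They encode proteins that block viruses or sense them. Ifit1, which binds viral RNA, was at 401 and 377 at 0 h, at 329.6 at 2 h, at 68.2 at 4 h and at 29.6 to 97.8 (median 60.4) in the window (log2 change -2.84, standard error 0.36, adjusted p = 9.5e-05 from limma). Oasl2 was at 360.4 and 304 and at 55.4 to 117 (median 78.1) (log2 change -2.11, standard error 0.22, adjusted p = 3.1e-05 from limma), and Usp18, which removes Isg15 from proteins and limits interferon signalling, at 354 and 270.2 and at 40.1 to 138 (median 80.3) (log2 change -2.03, standard error 0.35, adjusted p = 8.0e-04 from limma). The 18 h arrays were unlike for these genes. For Ifit1 they were 29.6 and 97.8, for Usp18 58.2 and 138 and for Isg15, a ubiquitin-like protein, 58.7 and 117. All were still below both 0 h arrays. Iigp1, a GTPase against intracellular parasites, had a log2 change of -2.24 and Ifi44 of -2.20 (limma, adjusted p = 1.2e-05 and 0.0016). Irf7, a factor that drives these genes, had a log2 change of -1.43 (limma, adjusted p = 0.0016). Ifit2 had 20.2 and 26.6 at 0 h and 27.2 to 35.9 in the window (log2 change 0.42, adjusted p = 0.036 from limma), and it was not called without the first 0 h array, the first 18 h array, the 20 h array or the first 24 h array, while 2 genes of the list were higher without the second 0 h array. Unsynchronised cells had Ifit1 at 76.2 and 61.7 and Isg15 at 86.9 and 98.9, within the window's range.

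**Figure D3:**
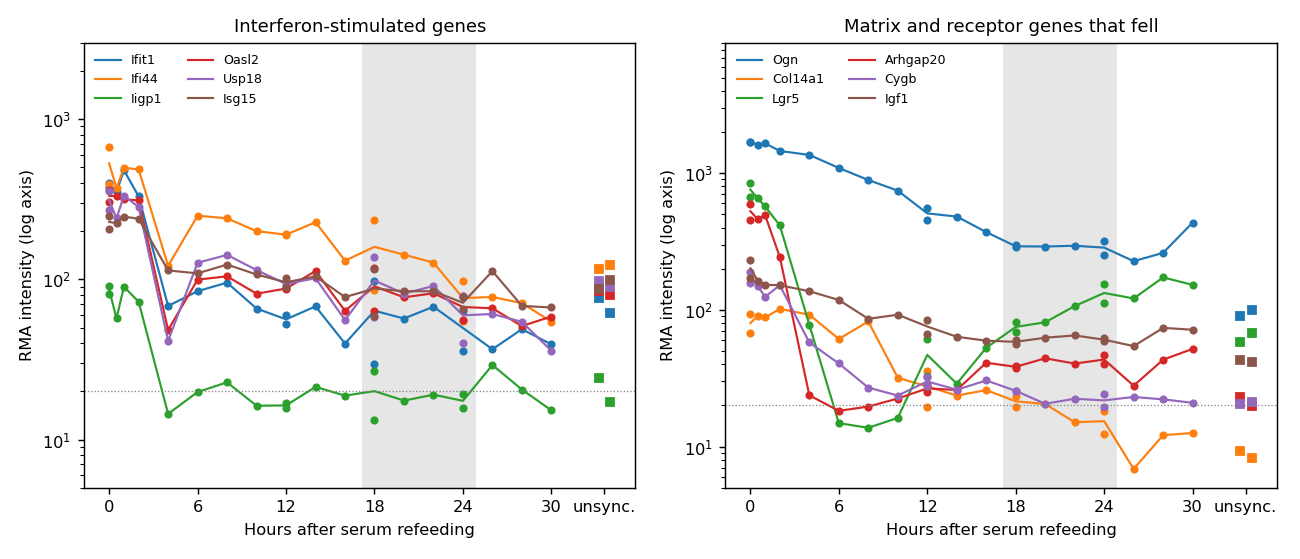
RMA intensity (log axis) against hours after serum refeeding for 6 interferon-stimulated genes (left) and 6 other genes that fell (right). Points are single arrays, lines join the means of a time point, squares are the 2 unsynchronised arrays, the grey band is the window and the dotted line the limit of 20. Ifit1 lies at 329.6 at 2 h and at 68.2 at 4 h, and Ogn lies at 252 to 319 in the window.

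Other immune genes were lower too. Of 14 genes that present peptides on MHC class I, 7 were lower (50.0%) and 0 higher, with Psmb8 and Psmb10, subunits of the immunoproteasome, at log2 changes of -0.85 and -0.85 (limma, adjusted p = 0.0027 and 7.1e-04). Without the first 0 h array Psmb8 was not called. B2m, the light chain of class I molecules, had 3058 and 3888 at 0 h and 2922 to 3480.5 in the window, with overlapping groups. For the direction higher, 0 of these genes and 0 of the complement genes had an unadjusted p under 0.05 from limma. Of 11 complement genes 7 were lower (63.6%) and 0 higher, or 1 without the second 0 h array. Serping1, the inhibitor of the first complement component, was at 526 and 493 at 0 h and at 177 to 292 (median 212) in the window (log2 change -1.22, standard error 0.16, adjusted p = 1.3e-04 from limma). Cd59a, which guards cells against complement, had a log2 change of -1.37, with -0.75 without the first 0 h array and -2.0 without the second. C1qb and C1qc, also among the 7, are made by macrophages, and C1qc was not called without the second 0 h array. The macrophage and leukocyte markers given above fell between the same arrays, and their part in these results was not tested.

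Lysosomal and autophagy genes were lower in 26 of 64 cases (40.6%) and higher in 3. Ctsf, cathepsin F, was at 135 and 128 at 0 h and at 36.9 to 54.2 (median 45.1) in the window (log2 change -1.54, standard error 0.16, adjusted p = 2.1e-05 from limma). Lipa, the acid lipase, was at 1355 and 1233 and at 617 to 705 (median 649) (log2 change -0.99, standard error 0.10, adjusted p = 2.4e-05 from limma), and Hexa, which degrades gangliosides, at 950.4 and 960.0 and at 432 to 537 (median 498) (log2 change -0.95, standard error 0.11, adjusted p = 5.9e-05 from limma). None of these groups overlapped. Without the first 0 h array 17 members fell, and without the second 6 rose. Lysosomal genes are abundant in macrophages, whose markers moved the same way, and the part of those cells was not tested.

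Growth factor and Wnt genes held falls above the background share. Of 43 genes of IGF, PDGF, FGF and related receptor kinase signalling, 18 were lower (41.9%) and 9 higher (20.9%). Igf1, which supports the survival and growth of fibroblasts, was at 232 and 171 at 0 h and at 56.4 to 65.0 (median 61.3) in the window (log2 change -1.71, standard error 0.12, adjusted p = 2.3e-06 from limma), and the window arrays differed little from each other. Fgf18 had a log2 change of -2.53 and Igfbp5, which binds IGFs, of -1.53 (limma, adjusted p = 3.5e-06 and 2.7e-04). The receptor gene Igf1r had one of -0.16 and overlapping groups, and one of -0.55 without the second 0 h array (limma, adjusted p = 0.023). The largest rises among the ligands were those of the EGF receptor. Ereg, epiregulin, was at 78.8 and 62.5 and at 198 to 263 (median 243) (log2 change 1.73, standard error 0.14, adjusted p = 5.9e-06 from limma), and Hbegf had a log2 change of 1.51 (limma, adjusted p = 1.2e-04). Grb14, an adaptor that dampens the insulin receptor, had one of 1.56. Ereg and Hbegf had stood far higher at 2 h, at 1332 and 1807.5, and were at 127 and 119 at 30 h. Hbegf was at 281 and 295 at 18 h and at 215 and 187 at 24 h, a difference that missed the threshold (limma, adjusted p = 0.38).

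Of 27 genes of the Wnt pathway, 12 were lower (44.4%) and 5 higher (18.5%). Lgr5, a receptor for R-spondins and a stem cell marker of the gut, was at 850.0 and 666 at 0 h and at 68.4 to 154 (median 94.2) in the window (log2 change -2.96, standard error 0.25, adjusted p = 6.7e-06 from limma). It was 13.7 at 8 h, 81.7 and 68.4 at 18 h and 112 and 154 at 24 h. That difference missed the threshold (log2 difference 0.81, adjusted p = 0.44 from limma). Genes of R-spondin ligands were lower too. Rspo3 was at 337 and 360.1 and at 90.4 to 128 (median 112) (log2 change -1.65, standard error 0.13, adjusted p = 4.0e-06 from limma), and Rspo1 had a log2 change of -1.46 (limma, adjusted p = 5.8e-04). The receptor Fzd4 had one of -1.52. Nkd2, an inhibitor of the pathway, rose, at 49.2 and 47.8 and at 139.7 to 197 (median 156) (log2 change 1.73, standard error 0.14, adjusted p = 4.0e-06 from limma), as did Wnt5a, with a log2 change of 0.92 (limma, adjusted p = 1.4e-04).

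Of 35 genes of TGF-beta and BMP signalling, 11 were higher (31.4%) and 7 lower (20.0%). The largest rises were secreted antagonists. Fst, follistatin, which traps activins, was at 138 and 143 at 0 h and at 295 to 409 (median 398) in the window (log2 change 1.40, standard error 0.14, adjusted p = 1.6e-05 from limma), and the related Fstl3 had a log2 change of 1.26 (limma, adjusted p = 4.6e-05). Grem1 belongs to the same list. Among the ligands, Bmp6 had a log2 change of -1.80 and Tgfb2 of -1.35 (limma, adjusted p = 2.2e-05 and 3.6e-04).

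Genes known from quiescence and FoxO control fell in 17 of 35 cases (48.6%) and rose in 6, and in 3 without the first 0 h array. Selenop, a selenium carrier, was at 55.7 and 55.3 at 0 h and at 19 to 20.6 (median 19.9) in the window (log2 change -1.49, standard error 0.09, adjusted p = 1.0e-06 from limma), and Gas2, named for its rise in growth arrest, had a log2 change of -1.54 (limma, adjusted p = 3.9e-05). Fbxo32, a FoxO target in starved muscle, went the other way, at 37.0 and 31.8 and at 86.5 to 105 (median 103) (log2 change 1.54, standard error 0.11, adjusted p = 2.6e-06 from limma). Of 28 p53 targets 13 fell (46.4%), 8 without the first 0 h array, and 2 rose. Trp53inp1 was at 465 and 465 and at 132 to 223 (median 191) (log2 change -1.41, standard error 0.19, adjusted p = 1.7e-04 from limma). Cdkn1a, the p53 target that inhibits cyclin-dependent kinases, was at 2360.1 and 1899.5 and at 1667 to 2082, with overlapping groups and a log2 change of -0.14 (limma, adjusted p = 0.39).

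The machinery of growth stood higher through the window, by smaller steps. Of 91 genes of ribosome biogenesis 53 were higher (58.2%) and 0 lower, with a median log2 change of 0.45. Dkc1, which modifies ribosomal RNA, was at 99.7 and 106 at 0 h and at 177 to 234 (median 219) in the window (log2 change 1.05, standard error 0.12, adjusted p = 6.5e-05 from limma). Of 49 genes of nuclear pores and nuclear transport 34 were higher (69.4%), with a median of 0.55, and 0 lower (limma, 1 at an unadjusted p under 0.05), but 25 of the 49 are also cell cycle genes as defined above. Of the 24 that are not, 11 were higher (45.8%) and 0 lower, with a median of 0.32. Rangap1, which activates the GTPase Ran, was at 75.6 and 106 and at 297 to 342 (median 314) (log2 change 1.83, standard error 0.13, adjusted p = 2.1e-06 from limma), and it is among the cell cycle genes. Of 65 splicing factors 39 were higher (60.0%) and 0 lower, 33 of 57 (57.9%) outside the cell cycle genes, and Snrpa1, a protein of the U2 particle, had a log2 change of 1.23 (limma, adjusted p = 1.0e-05). At an unadjusted p under 0.05 from limma, too, 0 genes of ribosome biogenesis and 0 splicing factors were lower, while without the second 0 h array 2 and 1 fell. Myc, the transcription factor that drives ribosome biogenesis, was at 299 and 269 and at 240.0 to 343, with a log2 change of 0.01 (limma, adjusted p = 0.97).

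Nucleotide synthesis, chaperones and the proteasome followed the same direction. Of 29 genes of purine, pyrimidine and one-carbon synthesis 19 were higher (65.5%) and 0 lower, with a median of 0.54. Umps, which completes uridine monophosphate, was at 115 and 151 at 0 h and at 317 to 406 (median 368) in the window (log2 change 1.48, standard error 0.13, adjusted p = 9.5e-06 from limma), and Ppat, the first enzyme of purine synthesis, had a log2 change of 1.28 (limma, adjusted p = 2.5e-05). Of 34 chaperonins and heat shock proteins 18 were higher (52.9%) and 0 lower, led by Hsph1, at 142 and 201 and at 454 to 612 (median 527) (log2 change 1.64, standard error 0.15, adjusted p = 9.0e-06 from limma). Of 37 proteasome genes 15 were higher (40.5%) and 0 lower. An unadjusted p under 0.05 from limma also gave 0 lower genes in these 3 lists, and without the second 0 h array 2 proteasome genes and 1 of nucleotide synthesis fell. Polyamine synthesis had 7 of 10 genes higher, 4 without the first 0 h array, with its limiting enzyme Odc1 at a log2 change of 0.81 (limma, adjusted p = 1.9e-04).

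Of 29 genes of glycolysis and the hypoxia response 18 were higher (62.1%) and 1, the lactate dehydrogenase gene Ldhb, was lower, with a median log2 change of 0.58. Slc16a3, a lactate exporter, was at 19.7 and 23.8 at 0 h and at 58.5 to 138 (median 74.1) in the window (log2 change 1.87, standard error 0.25, adjusted p = 1.5e-04 from limma). Hk2, an inducible hexokinase, was at 22.9 and 41.5 and at 72.2 to 105 (median 88.9) (log2 change 1.5, standard error 0.20, adjusted p = 1.4e-04 from limma). Ldha, which makes lactate, had a log2 change of 0.97 (limma, adjusted p = 2.1e-04). Its probe set was dim, at 16.4 and 24.3 at 0 h and at 36.9 to 41.4 in the window, so the size of this change is uncertain. The second 24 h array was the highest for Slc16a3, and also for Egln3 and Pfkl, and Egln3 was not called without the second 0 h array. Ldhb was not called without the first 0 h array. Of 28 genes of sterol synthesis and uptake, 2 were higher, 1 of them without the first 0 h array, and 3 lower, and Hmgcs1, an early enzyme of the path, was at 739 and 963 and at 630.2 to 1074, with overlapping groups.

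Targets of the serum response factor SRF and of YAP, which follow actin and cell tension, were higher in 21 of 45 cases (46.7%) and lower in 3. Ankrd1 was at 117 and 76.9 at 0 h and at 282 to 508 (median 451) in the window (log2 change 2.10, standard error 0.24, adjusted p = 5.0e-05 from limma), and Cnn1, a smooth muscle calponin, had a log2 change of 0.99 (limma, adjusted p = 3.2e-05). Both sets of window arrays lay above both 0 h arrays. Unsynchronised cells had more of both, at 768 and 912 for Ankrd1 and 681 and 966 for Cnn1, against window ranges of 282 to 508 and 245 to 288. Leaving out the first or the second 0 h array left 12 of the list higher. Immediate early genes showed no excess of rises, with 8 of 38 higher (21.1%) and 11 lower (28.9%). Fos, which was at 541 at 0.5 h, was at 51.3 and 94.8 at 0 h and at 8.82 to 24.5 (median 17.3) in the window (log2 change -2.07, standard error 0.35, adjusted p = 8.0e-04 from limma), below the starved level in all 6 arrays. Jun had a log2 change of -0.03, with overlapping groups (limma, adjusted p = 0.90).

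Transport and adhesion genes moved in both directions. Of 39 genes of guanylate cyclase, ion and solute transport, 12 were lower (30.8%) and 13 higher (33.3%), or 8 without the first 0 h array. Slc40a1, ferroportin, which exports iron, was at 41.4 and 39.7 at 0 h and at 6.12 to 9.17 (median 7.01) in the window (log2 change -2.46, standard error 0.15, adjusted p = 7.8e-07 from limma). Gucy1a1, a subunit of the nitric oxide receptor, had a log2 change of -1.90 and Abcc9, a subunit of a potassium channel, of -1.93. All 3 lay below the limit of 20 throughout the window, so these sizes rest on dim values. Of 34 integrins and adhesion receptors, 12 were higher (35.3%) and 9 lower (26.5%). Itga2, the alpha chain of a collagen receptor, was at 12.5 and 10.1 and at 25.2 to 66.5 (median 50.7) (log2 change 2.00, standard error 0.32, adjusted p = 5.2e-04 from limma), while Itga11, the chain of another collagen receptor, had a log2 change of -1.06. Itga2 was at 294 at 8 h, 66.5 and 61.2 at 18 h and 41.4 and 25.2 at 24 h. At 26, 28 and 30 h it was at 10.5, 22.2 and 28.1, so its change over the window averages unlike levels. The 24 h against 18 h difference of -0.98 missed the threshold (limma, adjusted p = 0.42). Cd44, the hyaluronan receptor, rose by 1.41 on the log2 scale and Cd34, a sialomucin of mesenchymal progenitors, had a change of -2.01. Of 21 genes of collagen processing, 4 were higher and 4 lower, with Tll1, a procollagen protease, at 104 and 93.2 and at 243 to 471 (median 417) (log2 change 1.97, standard error 0.21, adjusted p = 3.4e-05 from limma) and P3h2, a prolyl hydroxylase, at a log2 change of -1.45.

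Genes of stress and lipid use moved both ways. Of 40 genes of amino acid and unfolded protein stress, 14 were lower (35.0%) and 8 higher, or 4 without the first 0 h array. The lower ones held targets of Atf4, the factor that answers amino acid shortage. Ddit3, a death-linked factor, was at 166 and 206 at 0 h and at 64.2 to 105 (median 78.9) in the window (log2 change -1.19, standard error 0.18, adjusted p = 3.5e-04 from limma), and Trib3 had a log2 change of -1.48, a call lost without the second 0 h array. The secretory chaperones Creld2 and Sdf2l1, which answer misfolding in the endoplasmic reticulum, had log2 changes of 0.59 and 0.66 (limma, adjusted p = 0.0012 and 0.0043), and Sdf2l1 was not called without the second 0 h array. Of 35 genes of fatty acid synthesis and oxidation, 10 were lower (28.6%), or 6 without the first 0 h array, and 2 higher. Lpl, lipoprotein lipase, was at 215 and 345 and at 116 to 190.1 (median 137) (log2 change -0.99, standard error 0.20, adjusted p = 0.0028 from limma), and Acsl4, which activates arachidonic acid, had a log2 change of 1.00. Of 31 Nrf2 targets and metallothioneins, 10 were higher (32.3%), or 6 without the second 0 h array, and 7 lower (22.6%). Sod3, the superoxide dismutase outside cells, was at 44.1 and 35.3 and at 95.1 to 184 (median 133) (log2 change 1.75, standard error 0.22, adjusted p = 9.8e-05 from limma), and Gstm2, a glutathione transferase, had a log2 change of -1.39.

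Chromatin genes moved both ways. Of 36 tested, 18 were higher (50.0%) and 8 lower (22.2%), but 13 of them are also cell cycle genes, and outside these 6 of 23 were higher (26.1%) and 8 lower (34.8%). Uhrf1, Dnmt1 and Ezh2 are among the cell cycle genes. Uhrf1, which brings the maintenance methyltransferase to new DNA, was at 36.3 and 49.6 at 0 h and at 122 to 219.9 (median 154) in the window (log2 change 1.92, standard error 0.22, adjusted p = 4.7e-05 from limma), and that enzyme's gene Dnmt1 had a log2 change of 1.28 (limma, adjusted p = 1.9e-05). Tet1, Tet2 and Tet3, which oxidise methylcytosine, had log2 changes of -1.22, -0.74 and -0.88 (limma, adjusted p = 1.7e-04, 0.0022 and 0.0012). Dnmt3a, which places new methylation, had one of -0.62. Ezh2 and Ezh1, alternative methyltransferases of the Polycomb complex, had changes of 0.81 and -0.59 (limma, adjusted p = 5.5e-04 and 0.027). Smarca2, an ATPase of the SWI/SNF remodeller, was at 422 and 262 and at 107 to 128 (median 120.0) (log2 change -1.48, standard error 0.16, adjusted p = 2.9e-05 from limma). The groups of Tet1, Ezh1 and Smarca2 did not overlap, but Ezh1 was not called without the second 0 h array. Hmga2, an architectural protein of embryonic cells, had a log2 change of 1.45.

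Mitochondrial and translation genes moved by small steps, and their counts rested on single arrays. Of 65 mitochondrial ribosomal proteins 17 were higher (26.2%), against 9 to 10 without the first 18 h array, the 20 h array or the 22 h array. The 1 that was lower, Mrpl24, was called neither without either 0 h array nor without 4 of the window arrays, and 2 were lower without the second 0 h array. Of 63 genes of oxidative phosphorylation 11 were higher (17.5%), below the background share, with 4 to 6 on leaving out any of 6 single arrays, and 2 were lower, with 0 without the first 0 h array and 8 without the second. Cycs, cytochrome c, was at 675 and 457 at 0 h and at 783 to 918 (median 849) in the window (log2 change 0.61, standard error 0.14, adjusted p = 0.0061 from limma), and it was not called without the second 0 h array. Of 51 tRNA synthetases and initiation factors 15 were higher (29.4%), or 9 without the first 0 h array, and 1 lower, or 2 without any of 4 single arrays. Eef1e1, a scaffold of the synthetase complex, was at 370.3 and 343 and at 565 to 703 (median 601) (log2 change 0.79, standard error 0.11, adjusted p = 2.3e-04 from limma). Of 13 circadian clock genes 5 were lower and 3 higher, which fell to 2 or 3 lower without any of 5 arrays and to 1 higher without the first 0 h array. Dbp, a clock output factor, had a log2 change of -0.83, a call lost without the second 0 h array.

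**Figure D4:**
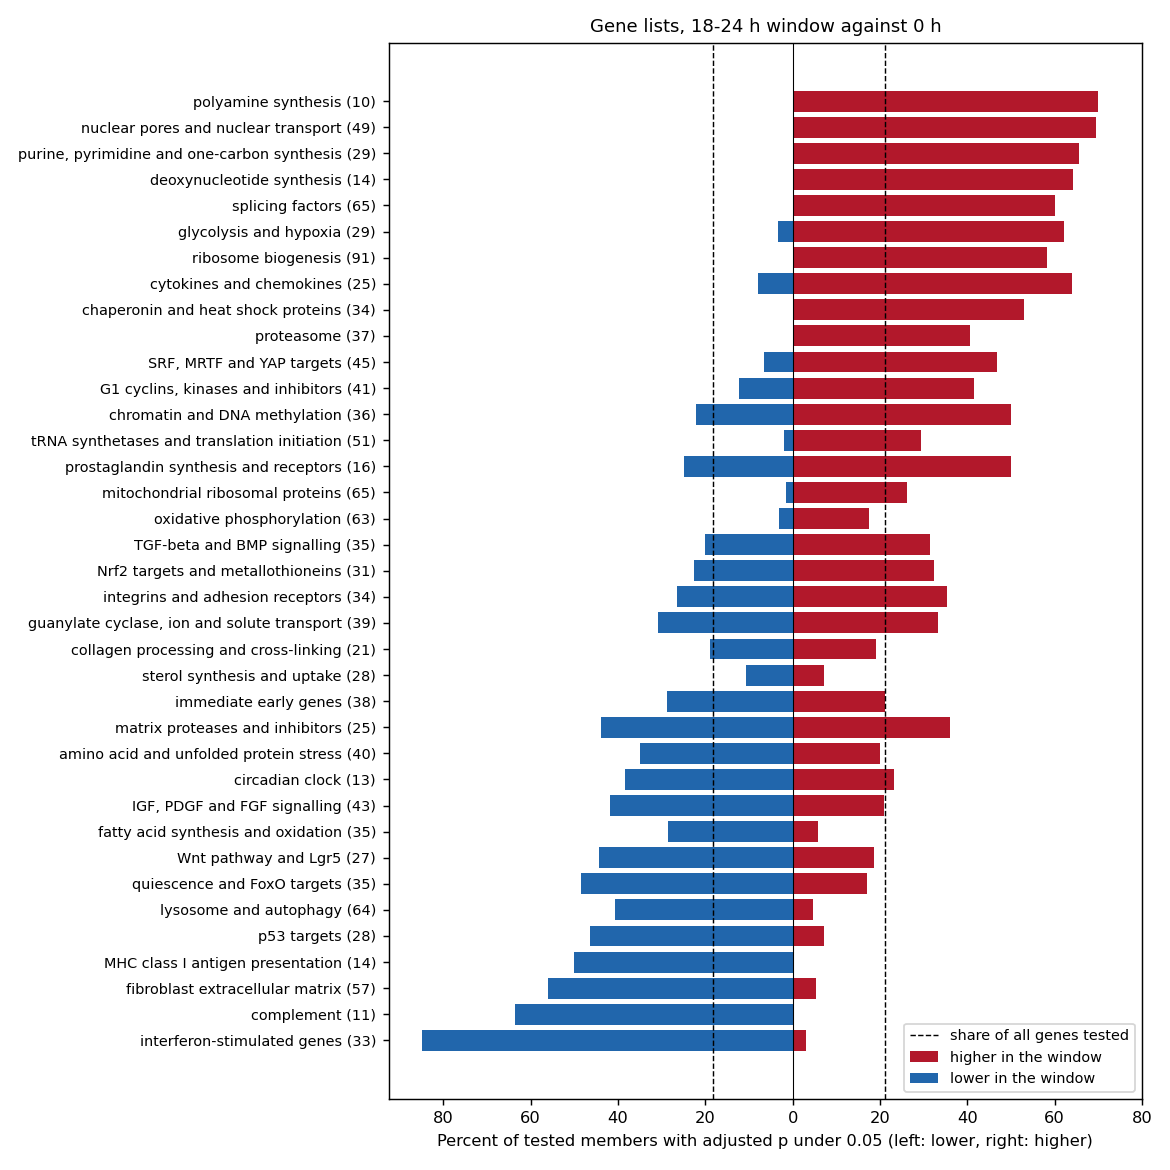
Percent of the tested members of each of 37 gene lists that were higher (right) or lower (left) in the window than at 0 h at an adjusted p under 0.05, with the number tested in brackets. Dashed lines mark the share of all genes tested, 21.2% higher and 18.2% lower, and interferon-stimulated genes have the largest share of falls at 84.8%.

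Cell cycle genes were mostly higher, which the choice of cycling cells makes a check of the labels. Of 572 tested, 428 were higher (74.8%) and 8 lower (1.40%), with a median log2 change of 0.78. The study chose part of its list on these arrays, so the direction is not independent evidence. Of the 14 genes of deoxynucleotide synthesis 9 were higher and 0 lower, or 1 without the second 0 h array. The median was 0.80 for the 296 S genes and 1.00 for the 239 G2-M genes. The largest rise was that of Cep55, which acts in the last step of cytokinesis, at 25.8 and 19.1 at 0 h and at 115 to 165 (median 142) in the window (log2 change 2.65, standard error 0.16, adjusted p = 7.8e-07 from limma). Birc5, Shcbp1, Rrm2, 4930579G24Rik and Ncapg2 followed, with log2 changes of 2.49, 2.47, 2.37, 2.36 and 2.28. Of 41 genes of G1 tested, 17 were higher and 5 lower, or 2 without the first 0 h array. Among them the inhibitor Cdkn1c, p57, had the largest fall, at 194 and 231 and at 26.6 to 51.0 (median 40.9) (log2 change -2.46, standard error 0.21, adjusted p = 6.1e-06 from limma). Mxd4, an antagonist of Myc, had a log2 change of -1.20 (limma, adjusted p = 8.9e-05). Ccnd1, cyclin D1, and Ccne1, cyclin E1, had log2 changes of 0.46 and 1.33 (limma, adjusted p = 0.014 and 3.1e-04), and Ccnd1 was not called without the first 0 h array. Cdkn1b, p27, had one of -0.03 with overlapping groups.

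Within the window few genes were found to move, in a comparison of 2 with 2 arrays that could miss true moves. Between 18 h and 24 h, 0 genes were higher at 24 h (0% of those tested) and 2 lower (0.0201%) at an adjusted p under 0.05 in a limma fit over all 24 arrays, and 808 had an unadjusted p under 0.05. The 2 genes were H2ac21, a histone, and Scarna6, a small RNA of Cajal bodies. H2ac21 was at 71.6 and 76.2 at 18 h, 56.2 at 20 h, 46.4 at 22 h and 35.2 and 32.3 at 24 h (log2 difference -1.13, adjusted p = 0.035 from limma). Scarna6 was at 126 and 241 and at 34.7 and 43.8 (log2 difference -2.16, adjusted p = 0.039 from limma), and it did not differ beyond its spread between the window and 0 h (limma, adjusted p = 0.86). Leaving out any 1 of the 4 arrays ended the call of H2ac21, with adjusted p of 0.065 to 0.49 from limma, and leaving out the second 18 h array or either 24 h array that of Scarna6. Among the genes that did not pass was Mcm5, a subunit of the replicative helicase chosen here after its values were seen, at 403 and 399 at 18 h and 242 and 233 at 24 h (log2 difference -0.76, adjusted p = 0.22 from limma). The median SD of a gene over the 6 window arrays was 0.15 on the log2 scale.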

How the data were processed

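Total RNA of MEF was hybridised to Affymetrix Mouse Gene 2.0 ST arrays, 1 for each of 24 samples. The deposited values are intensities that the authors made by robust multi-array averaging (RMA) of all arrays together with oligo, whose version is not given in the sources used here. Both deposited tables hold the same values, which lie between 1.74 and 6335 and so are linear, although a header names log2, and log2 was taken here. RMA shares 1 distribution over all arrays, so a change common to most transcripts cannot appear. GEO's platform table, with a supplementary list of the study for 87 more, gave 10329 of the 14182 probe sets past the minimum a single gene. The brightest probe set stood for each of 9970 genes.

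The 6 window arrays and the 2 arrays at 0 h were fitted as 2 means with limma 3.58.1 in R 4.3.3 (6 residual and 5.32 prior degrees of freedom). The times 24 h and 18 h were compared in a fit of 19 group means over 24 arrays (5 residual and 5.57 prior degrees of freedom). Both were tested on simulated data in which every array had the spread of the window arrays. The wider spread at 0 h was thus not tried. The 37 gene lists and 7 marker lists were chosen with earlier results of these data known. Outside the cell cycle the 15 largest rises and falls without overlap are named, then up to 5 called members of a list by size, the genes a list's role turns on, and 6 cell cycle genes each way. Not all of these are described above. 1 of the large rises is not reported here. Adamts1, Adamts5, C1qc, Ccl2, Cd68, Col1a2, Col3a1, Creld2, Cxcl1, Cxcl10, Dnmt1, Dnmt3a, Ezh1, Ezh2, H2ac21, Hpgd, Ifit2, Irf7, Isg15, Itgam, Jun, Ldhb, Ltbp1, Ltbp2, Mrpl24, Plat, Plau, Plaur, Ptges, Ptprc, Sdf2l1, Tet1, Tet2, Tet3, Timp1, Tnc and Wnt5a fall outside that rule and were picked with their values known. Alternatives changed the fit, the weight of the time points, the minimum, probe sets, scaling, moderation, array weights and arrays left out. Python 3.11.15 made the counts and matplotlib 3.10.9 the figures.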

Additional observations from a re-analysis of the deposited data

Results flagged for a closer look

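Within the 6 window arrays, 1 array stood apart from the other 5 in 20 of 212 named genes, or 9.43%, where chance flags about 1 in 20. The value given for each gene is the gap from that array to its neighbour as a share of the range of the window. The second 24 h array was the one apart in 9 of the 20. It was low for Tll1 (0.652, at an intensity of 243), Cd36 (0.645, at 16.2), Nup107 (0.667, at 218), Ppat (0.631, at 114), Dut (0.632, at 62.8) and Hells (0.781, at 105). It was high for Igfbp5 (0.684, at 287), Slc16a3 (0.672, at 138) and Egln3 (0.669, at 49.7).

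The first 24 h array was high for Angptl1 (0.724, at 6.16) and low for Eif6 (0.803, at 210.1) and Mrpl38 (0.649, at 126). The second 18 h array was high for F830016B08Rik (0.821, at 12.8) and low for Pomp (0.648, at 151), Bhlhe41 (0.701, at 17.0) and Sod2 (0.629, at 494). The first 18 h array was low for Cd44 (0.715, at 124). The 22 h array was low for Fbxo32 (0.667, at 86.5), Itga11 (0.697, at 247) and Egr1 (0.741, at 72.1). For Angptl1 and F830016B08Rik all window arrays lay below the limit of 20.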

How the results depend on the processing

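The direction of all 212 named genes held in each alternative that gave a value. In 2 of these settings it could not have changed. With separate probe sets the one nearest the main value was kept for each gene, and the 2-fold setting used the main fit. Other probe sets of the named genes were thus not compared. The 212 do not include the genes picked with their values known. They also leave out some that a list's role turns on, such as Myc and Mmp2. Counts moved by over 1.5 times in several settings. Of 2111 genes higher and 1815 lower, 486 and 406 also changed by at least 2-fold, and array weights left 1357 and 1109. Outside the cell cycle, the 1683 higher and 1807 lower genes became 234 and 404 at 2-fold or more and 993 and 1106 with array weights. Leaving out 1 array at a time gave 1585 to 2110.0 higher and 1332 to 1830.0 lower genes, and outside the cell cycle 1206 to 1729 and 1329 to 1809. The array that mattered most was the first at 0 h. Without it 1398 of the genes called higher and 1167 of those called lower were called again, and 22 of the named genes were not, against 13 without the second 0 h array and 2 to 3 without any window array. Quantile normalization gave 1982 higher and 2032 lower genes, and centring on the median 2188 and 1699. Counts of several gene lists moved by over 1.5 times too. With array weights, genes that were higher went from 21 to 8 for SRF and YAP targets, from 15 to 7 for the proteasome, from 15 to 9 for tRNA synthetases and initiation factors, from 17 to 5 for mitochondrial ribosomal proteins, from 11 to 2 for oxidative phosphorylation, from 10 to 6 for Nrf2 targets, from 8 to 5 for amino acid stress and from 8 to 4 for immediate early genes. Genes that were lower went from 26 to 13 for lysosomes, from 10 to 5 for fatty acids, from 9 to 5 for integrins, from 14 to 8 for amino acid stress and from 7 to 3 for Nrf2 targets. Without a minimum intensity, 10 mitochondrial ribosomal proteins and 5 genes of oxidative phosphorylation were higher.

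The main fit did not pair arrays by replicate number. Deviations of same-numbered arrays correlated at -0.196 between 0 h and 18 h, 0.216 between 0 h and 24 h and -0.194 between 18 h and 24 h. These values do not settle whether the arrays were paired. With the number as a block, over the duplicated times only, 1458 genes were higher and 1275 lower, 1082 and 1270.0 of them outside the cell cycle. The same arrays without the block, a setting added after seeing the data, gave 1529 and 1337, and outside the cell cycle 1149 and 1332. With the block, the number higher went from 39 to 23 for splicing factors, from 21 to 9 for SRF and YAP targets, from 15 to 8 for tRNA synthetases and initiation factors, from 15 to 7 for the proteasome, from 17 to 5 for mitochondrial ribosomal proteins, from 11 to 3 for oxidative phosphorylation, from 8 to 4 for amino acid stress and from 8 to 5 for prostaglandins, and the number lower from 26 to 16 for lysosomes. Between 18 h and 24 h the block gave 0 higher and 3 lower genes.

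The counts between 18 h and 24 h, 0 higher and 2 lower, were 2 and 3 with centred arrays and with a variance trend and robust moderation, and 0 and 0 with only the 4 arrays. They ran from 0 to 1 higher and from 0 to 6 lower on leaving out 1 array. The 1 and the 6 came without the first 18 h array. The cause of these moves was not tested. With 2 starved arrays and dim probe sets near the limit of 20, small changes of low genes are the least certain.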
